A study of Mus musculus with 10 samples.

Results

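Oligodendrocyte precursors (OPC) were taken as the cells that the authors' deposited annotation names OPC, and they were followed through the clusters numbered 6, 15, 20 and 24 that make up this class. There were 10536 OPC among 68914 annotated cells of 10 libraries, which made them the class with rank 3 in number of the 16 in the annotation, after microglia and oligodendrocytes. Cluster 6 held 7416 OPC, cluster 15 held 2776, cluster 20 held 292 and cluster 24 held 52. Hippocampi were collected from wild-type male C57BL/6 mice aged 11 weeks, 3 days after each had received an injection on both sides. FL-NfL, the full-length form of neurofilament light chain, was given at 1 mg/ml (3 libraries), CC-NfL, its coiled-coil form, at 1 mg/ml (3 libraries), and vehicle to the rest (4 libraries). Replicates 1 and 2 of every group belonged to batch b1, and replicates 3 and 4 to batch b2, so b2 held 1 FL-NfL, 1 CC-NfL and 2 vehicle libraries. All groups shared the surgery, the dissociation and a sort for live cells, and no group received an unrelated protein. The table holds names and map positions and no gene values, so the label OPC was not checked here against Pdgfra, Cspg4 and Olig1.

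OPC are the glial cells, known by the receptor Pdgfra and the proteoglycan NG2 encoded by Cspg4, that divide throughout life and give rise to oligodendrocytes, the cells that wrap axons in myelin. They are spread through the grey and white matter of the hippocampus. After injury or inflammation in rodents, OPC are known to proliferate and to change their shape and gene expression. Neurofilament light chain is an intermediate filament protein of axons that is released when they are damaged, and the study asked what exogenous NfL does to cells of the brain.

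A library held between 563 and 1797 OPC among 3150 to 14141 annotated cells, and these cell numbers are the depth behind each share. Barcodes without an annotation made up 17.3% to 20.7% of the barcodes of the b2 libraries and 42.0% to 71.3% of those of the b1 libraries. Of the 10530 distinct OPC barcode sequences, 6 occurred in more than 1 library (0.0570%). Neural progenitors (NPC) made up more of the 3 libraries numbered 1 than of the others, at 13.5% of annotated cells in FL-NfL, 20.5% in CC-NfL and 16.8% in vehicle. Where leaving these 3 libraries out ended a call, the value without them stands beside it.

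The share of OPC among annotated cells overlapped between the groups. They made up 13.6%, 17.9% and 14.1% of the annotated cells of the FL-NfL libraries, 17.9%, 17.7% and 12.7% of the CC-NfL libraries, and 15.5%, 19.0%, 16.7% and 14.8% of the vehicle libraries. The lowest value came from a CC-NfL library and the highest from a vehicle library. The mean was 15.2% ± 2.32 after FL-NfL, and after CC-NfL it was 16.1% ± 2.95 (SD, n = 3 each), against 16.5% ± 1.87 after vehicle (SD, n = 4). For both proteins pooled, named either NfL from here on, the log2 odds ratio against vehicle was −0.14 (SE 0.26, 95% interval −0.73 to 0.44, limma's moderated test, adjusted p = 0.884). OPC were not among the 2 of 16 classes that passed an adjusted p of 0.05 in this contrast (12.5%), a number that ran from 0 to 2 with each library left out in turn. The log2 odds ratio of OPC for b2 against b1 was −0.28 (limma, adjusted p = 0.720), and 1 of 16 classes, not OPC, passed there (6.25%). The interval for either NfL reaches from a fall to a rise, so the test does not show that the OPC share was unaffected. With microglia, macrophages and other immune cells taken out of the denominator, OPC made up 26.0% ± 5.08 of the remaining cells after either NfL (n = 6) and 25.3% ± 4.60 after vehicle (n = 4).

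The division of OPC between clusters 15 and 6 differed between the NfL groups and vehicle. Cluster 15 made up 32.3%, 28.1% and 29.9% of the OPC of the FL-NfL libraries, and 28.1%, 29.4% and 36.4% of the OPC of the CC-NfL libraries. In the vehicle libraries it made up 15.9%, 22.8%, 19.4% and 16.4%. All 6 NfL libraries lay above all 4 vehicle libraries. The lowest NfL library, FL-NfL replicate 2, had an exact (Clopper-Pearson) 95% interval of 24.39% to 31.97%. That of the highest vehicle library, replicate 2, was 19.6% to 26.3%. These 2 intervals, which cover counting error only, overlap. The mean share was 30.1% ± 2.15 after FL-NfL, and after CC-NfL it was 31.3% ± 4.50 (SD, n = 3 each), against 18.6% ± 3.22 after vehicle (SD, n = 4), or 1.62 and 1.68 times the vehicle mean.

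Cluster 6, the largest OPC cluster, showed the opposite pattern. It made up 63.7%, 69.1% and 67.4% of OPC after FL-NfL, 68.6%, 66.7% and 61.4% after CC-NfL, against 79.3%, 73.0%, 76.4% and 81.2% after vehicle. All 6 NfL libraries lay below all 4 vehicle libraries. Cluster 6 averaged 66.7% ± 2.78 after FL-NfL, and after CC-NfL 65.6% ± 3.69 (SD, n = 3 each), against 77.5% ± 3.56 after vehicle (SD, n = 4). Clusters 6 and 15 together hold nearly all OPC, so a higher share of one is a lower share of the other, and the 2 results are 1 observation.

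**Figure D1:**
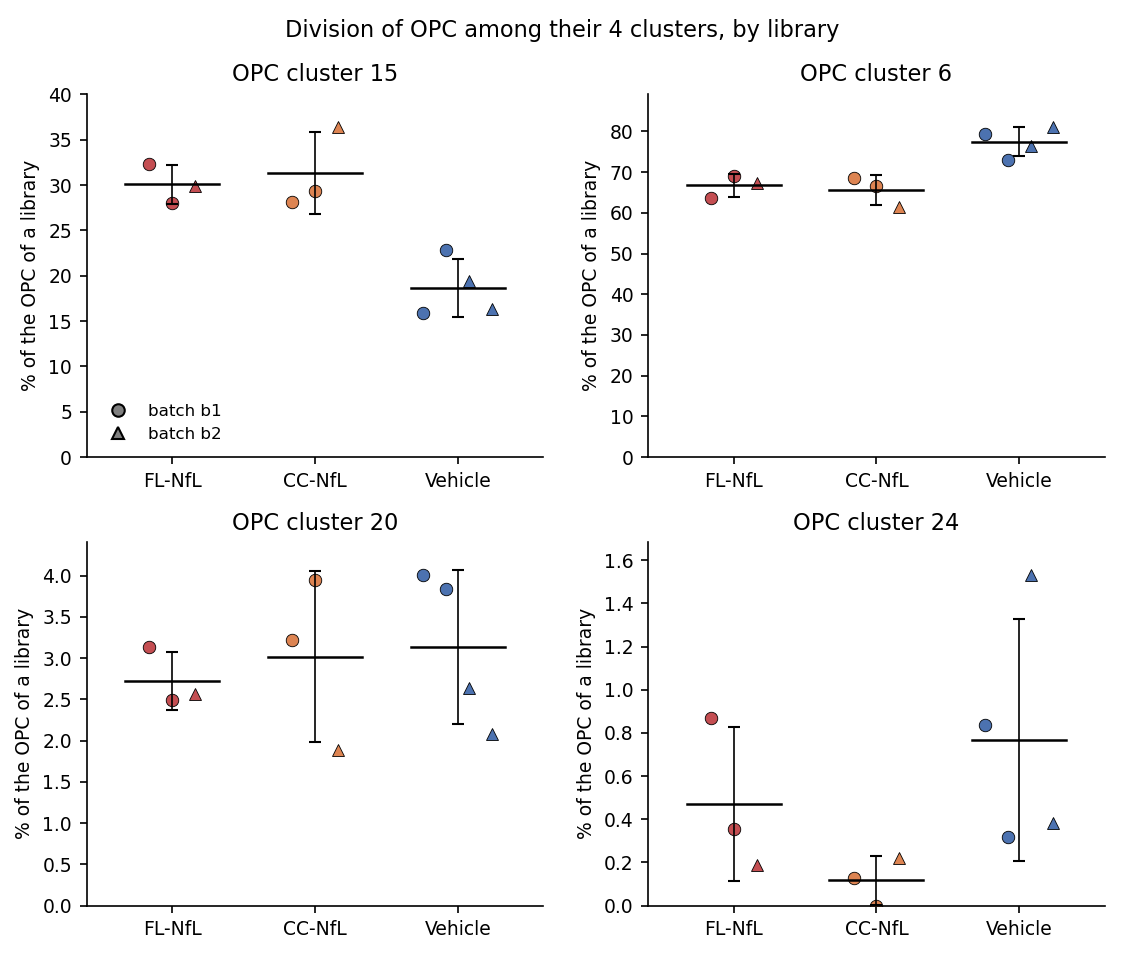
Share of OPC in each OPC cluster, in percent of the OPC of a library, for FL-NfL, CC-NfL and vehicle. Each point is a library (circles b1, triangles b2), bars are means and error bars SD. In the cluster 15 panel the 6 NfL libraries sit between 28.1% and 36.4% and the vehicle libraries between 15.9% and 22.8%, and in the cluster 6 panel the order is turned over.

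The contrast of cluster 15 with cluster 6 was measured in each library as the number of cluster 15 cells per 100 cells of cluster 6. The FL-NfL libraries had 50.8, 40.6 and 44.3 and the CC-NfL libraries 41.0, 44.1 and 59.3, against 20, 31.3, 25.4 and 20.2 in the vehicle libraries. The log2 ratio averaged −1.11 ± 0.21 after either NfL (SD, n = 6) and −2.07 ± 0.31 after vehicle (SD, n = 4), and it rose by 0.96 (exact two-sided permutation p = 0.00476, the smallest that 210 splits allow, adjusted p = 0.0190 over 4 contrasts), which is 1.94-fold. Permuting within batch gave a difference of 0.97 (exact p = 0.0111, the smallest of 90 splits, adjusted p = 0.0444). Leaving out each library in turn gave differences of 0.87 to 1.09 with exact adjusted p-values of 0.0317 to 0.0476. The groups stay fully apart whichever library is left out, so these p-values were fixed in advance and add nothing to the call. The call ended in b1 alone (0.81, exact p = 0.0667) and without the 3 libraries numbered 1 (0.88, exact p = 0.0286, adjusted p = 0.114). These exact p-values are the smallest the smaller sets allow. Over 3 pairs of libraries of the same number the difference was 0.88, and no exact p under 0.05 is possible there.

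Each protein on its own gave a difference of similar size. The log2 ratio averaged −1.15 ± 0.16 after FL-NfL (SD, n = 3), a difference from vehicle of 0.92 that did not pass (exact permutation p = 0.0571, adjusted p = 0.0762). After CC-NfL it averaged −1.07 ± 0.28 (SD, n = 3), a difference of 0.99 that did not pass after adjustment either (exact permutation p = 0.0286, the smallest possible for 3 against 4, adjusted p = 0.0571). On a percentage scale, with cluster 15 as a share of clusters 6 and 15 together, the mean was 31.1% ± 2.43 after FL-NfL, and after CC-NfL it was 32.3% ± 4.34, against 19.4% ± 3.40 after vehicle. On that scale both passed, each with an exact permutation adjusted p of 0.0381, so the call for a single protein depends on the scale. FL-NfL and CC-NfL were not told apart, with a difference in log2 ratio of −0.08 (exact permutation p = 0.700, smallest possible 0.1). For the share of cluster 15 in OPC, the log2 odds ratio of FL-NfL against CC-NfL was −0.08 with a 95% interval of −0.82 to 0.67, so a difference of that size either way is not excluded.

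**Figure D2:**
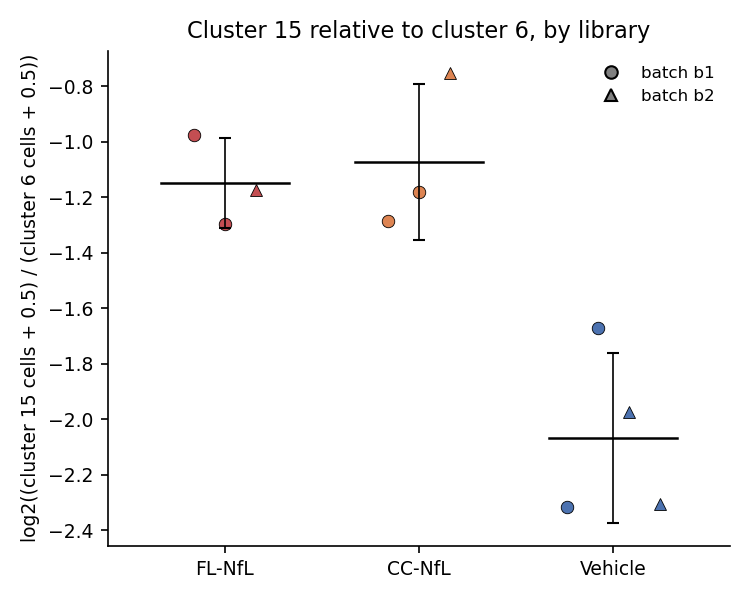
Log2 ratio of cluster 15 to cluster 6 cells in each library (circles b1, triangles b2), with group means and SD, for FL-NfL, CC-NfL and vehicle. The 6 NfL libraries lie between −1.30 and −0.75 and the 4 vehicle libraries between −2.32 and −1.67.

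The direction was the same in both batches. In b1 the mean log2 ratio of cluster 15 to cluster 6 was −1.14 in FL-NfL libraries and −1.23 in CC-NfL libraries, against −1.99 after vehicle (n = 2 each). In b2 it was −1.17 in the FL-NfL library and −0.75 in the CC-NfL library, against a mean of −2.14 in the 2 vehicle libraries. The difference between either NfL and vehicle was thus 1.18 in b2 and 0.81 in b1. For the share of cluster 15 in OPC, the log2 odds ratio in b2 minus that in b1 was 0.37 (SE 0.57, 95% interval −1.04 to 1.77, limma, adjusted p = 0.961), and no cluster of any class passed this test of a difference between batches (0 of 22, 0%, also 0 at an unadjusted p under 0.05). Between the batches themselves the log2 ratio averaged −1.55 ± 0.71 in b2 (SD, n = 4) and −1.45 ± 0.48 in b1 (SD, n = 6), which did not differ beyond their spread (exact permutation p = 0.805).

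When the same shares were tested in 1 fit with the clusters of all other classes, neither OPC cluster passed. In simulated data this fit called 11% of the items given a log2 odds ratio of 1. These items were drawn from all 22 clusters, and counting noise was added to a spread that already held it. The 11% is thus not the power for clusters 15 and 6, and not passing is not read as no effect. For either NfL against vehicle the log2 odds ratio within OPC was 0.98 for cluster 15 (SE 0.26, 95% interval 0.38 to 1.57, adjusted p = 0.0852) and −0.82 for cluster 6 (SE 0.26, 95% interval −1.41 to −0.24, adjusted p = 0.0852). Limma called 0 of the 22 clusters tested within their class (0%), and 8 of 22 (36.4%) had an unadjusted p under 0.05, clusters 15 and 6 among them. That number was 0 of 22 without the 3 libraries numbered 1, where cluster 15 was at 0.89 (unadjusted p = 0.0701) and cluster 6 at −0.77 (unadjusted p = 0.108, limma for both). Leaving out FL-NfL replicate 2 gave 7, leaving out replicate 2 of CC-NfL gave 6, and leaving out any other single library gave 5. The quasi-binomial model called 3 of 22, of which 2 were clusters 15 and 6 (log2 odds ratios 1.04 and −0.88, adjusted p = 0.0208 for both). On the arcsine scale, limma called 3 of 22, both of these clusters among them (adjusted p = 0.0356). The centred log ratio sets each cluster against the geometric mean of the clusters of its class. For OPC this mean includes the rarest cluster, which was below the minimum number of cells for the test. That cluster averaged 0.294% of OPC after either NfL and 0.767% after vehicle. On the centred log ratio, limma called 0 of 22, and cluster 15 stood at 1.04 (adjusted p = 0.0779). Cluster 6 turned direction, at 0.0721 (adjusted p = 0.837) for either NfL and 0.27 (adjusted p = 0.672) for CC-NfL.

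For each protein alone, limma called 0 of 22 clusters within their class for FL-NfL and likewise 0 of 22 for CC-NfL (0% each). At an unadjusted p under 0.05 there were 2 of 22 after FL-NfL (9.09%), clusters 15 and 6, and 8 of 22 after CC-NfL (36.4%). The FL-NfL number was 0 with FL-NfL replicate 1 left out, 1 with CC-NfL replicate 1, CC-NfL replicate 2 or vehicle replicate 1 left out, and 4 with FL-NfL replicate 2 or vehicle replicate 2 left out. The CC-NfL number was 3 without CC-NfL replicate 3, 4 without CC-NfL replicate 1 or 2, and 5 without vehicle replicate 2. The quasi-binomial model called 0 of 22 for FL-NfL and, for CC-NfL, 6 of 22, clusters 15 and 6 among them. Cluster 15 had a log2 odds ratio of 0.94 for FL-NfL (SE 0.31, adjusted p = 0.302) and of 1.01 for CC-NfL (SE 0.31, adjusted p = 0.0997). Of the 22 clusters, 2 had every NfL library on the same side of every vehicle library (9.09%), and these were clusters 15 and 6. The same 2 clusters stood apart from vehicle in this way after FL-NfL (2 of 22, 9.09%), and after CC-NfL they were among 6 of 22 (27.3%). Cluster 15 ranked 4 of 22 by its log2 odds ratio for either NfL. The highest estimate was that of oligodendrocyte cluster 16, at 1.96 (SE 0.74, adjusted p = 0.127).

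**Figure D3:**
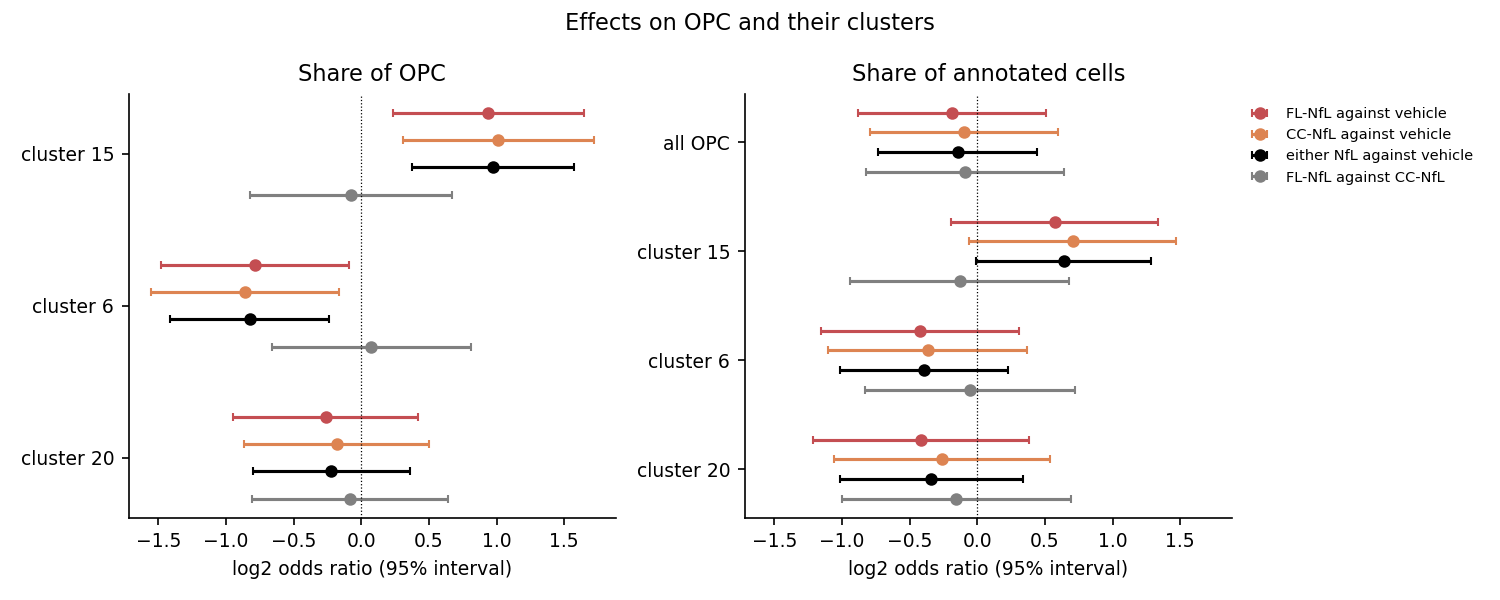
Log2 odds ratios with 95% intervals for OPC as a share of annotated cells and for OPC clusters as shares of annotated cells and of OPC, by contrast. Within OPC, cluster 15 lies above 0 and cluster 6 below 0 for FL-NfL, CC-NfL and either NfL against vehicle, and FL-NfL against CC-NfL lies near 0.

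As a share of all annotated cells the same clusters gave smaller estimates. Cluster 15 made up 4.41%, 5.02% and 4.22% of annotated cells after FL-NfL, 5.04%, 5.20% and 4.63% after CC-NfL, against 2.45%, 4.35%, 3.25% and 2.42% after vehicle. Vehicle replicate 2 lay above FL-NfL replicate 3, so the groups overlapped for FL-NfL, while all 3 CC-NfL libraries lay above every vehicle library. Such a separation was found for 2 of 31 clusters after FL-NfL (6.45%) and for 5 of 31 after CC-NfL (16.1%). The log2 odds ratio for either NfL was 0.64 (SE 0.28, 95% interval −0.01 to 1.29, limma, adjusted p = 0.338), against a background of 1 of 31 clusters called (3.23%). The quasi-binomial model called 4 of 31 in this contrast, cluster 15 among them (0.63, adjusted p = 0.0429). For FL-NfL alone the limma estimate was 0.57 (adjusted p = 0.745), with 2 of 31 clusters called (6.45%). For CC-NfL it was 0.70 (adjusted p = 0.283), with 0 of 31 called (limma), 0 of 31 called by a quasi-binomial model and 3 of 31 below 0.05 before adjustment (limma). Leaving out each library in turn, limma called 0 to 2 clusters for either NfL, for FL-NfL and for CC-NfL, so these backgrounds are not stable. Cluster 6 made up 10.4% ± 1.99 of annotated cells after either NfL (n = 6) and 12.7% ± 0.84 after vehicle (n = 4), with a log2 odds ratio of −0.40 (SE 0.27, adjusted p = 0.590). The data hold shares and not numbers of cells per hippocampus, so more cells of cluster 15 and fewer of cluster 6 cannot be told apart. The sources used here do not give how the authors clustered the cells, and a change in gene levels that moves a cell from 1 cluster to another cannot be told apart from a change in the numbers of separate kinds of OPC.

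Macrophages had a higher mean share of annotated cells after FL-NfL (7.36%) and CC-NfL (4.05%) than after vehicle (1.44%). They made up 9.55%, 5.49% and 7.04% of annotated cells after FL-NfL, 1.94%, 4.38% and 5.81% after CC-NfL, against 1.60%, 1.58%, 1.54% and 1.05% after vehicle. For CC-NfL, limma called 0 of 16 classes. Within FL-NfL and within CC-NfL, the order of the 3 libraries by macrophage share was also their order by the share of cluster 15 in OPC. Among the vehicle libraries the orders differed. Between the proteins they differed too: the mean macrophage share was higher after FL-NfL, and the mean share of cluster 15 in OPC was higher after CC-NfL (31.3% against 30.1%). The part of macrophages in the division of OPC was not tested.

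Cluster 20 did not differ between the NfL groups and vehicle beyond the spread of libraries. It made up 3.13%, 2.49% and 2.56% of OPC after FL-NfL, 3.22%, 3.94% and 1.89% after CC-NfL, against 4.01%, 3.83%, 2.63% and 2.08% after vehicle, and the groups overlapped. The log2 odds ratio for either NfL was −0.22 (SE 0.25, 95% interval −0.80 to 0.36, adjusted p = 0.593). By batch, cluster 20 made up 2.29% ± 0.36 of OPC in b2 (n = 4) and 3.44% ± 0.60 in b1 (n = 6). The mean was lower in b2 in all 3 groups, at 2.56% and 2.81% for FL-NfL, 1.89% and 3.58% for CC-NfL, and 2.35% and 3.92% for vehicle in b2 and b1. The log2 odds ratio of b2 against b1 was −0.65 (SE 0.25, adjusted p = 0.183) and did not pass. Limma called 0 of 22 clusters within their class in this contrast (0%), as did the quasi-binomial model. An unadjusted p under 0.05 was reached by 4 of 22 (18.2%). As a share of annotated cells, cluster 20 had a log2 odds ratio of −0.87 for b2 against b1 (SE 0.29, adjusted p = 0.187) and was not among the 2 of 31 clusters called (6.45%).

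Cluster 24 was rare and uneven. Of its 52 cells, 25 came from vehicle replicate 3, where they made up 1.53% of OPC. In the other libraries there were between 0 and 5 cells. The share was 0.870%, 0.355% and 0.187% after FL-NfL, 0.129%, 0 and 0.223% after CC-NfL, against 0.835%, 0.319%, 1.53% and 0.384% after vehicle. No cell was found among the 1065 OPC of CC-NfL replicate 2, which allows a share of up to 0.282%, counting error only. With a mean of 5.2 cells per library, cluster 24 was below the minimum for the test.

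The ratio of OPC to oligodendrocytes, the cells that OPC give rise to, varied widely within each group. There were 101, 184 and 59.4 OPC per 100 oligodendrocytes in the FL-NfL libraries, 262, 119 and 82.6 in the CC-NfL libraries, and 129, 106, 203 and 60.9 in the vehicle libraries. The 3 groups overlapped across most of their range. The log2 ratio averaged 0.25 ± 0.78 after either NfL (SD, n = 6) and 0.19 ± 0.72 after vehicle (SD, n = 4), a difference of 0.06 (exact permutation p = 0.905). By batch it averaged −0.18 ± 0.83 in b2 and 0.50 ± 0.53 in b1, a difference of −0.68 (exact permutation p = 0.157), and without vehicle replicate 3 the difference was −1.08 (exact permutation p = 0.0238).

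On the authors' t-SNE map, which places cells with similar profiles near each other but keeps no scale of distance, OPC stood apart from every other class. All 30 nearest annotated neighbours of every OPC were OPC. Clusters 6 and 15 had borders with few mixed cells: on average 96.6% of the 30 neighbours of a cluster 15 cell belonged to cluster 15 and 3.37% to cluster 6. For a cluster 6 cell 98.6% belonged to cluster 6 and 1.24% to cluster 15. Cluster 20 had 6.79% of its neighbours in cluster 6. Cluster 24 lay in 1 tight spot, with a median distance from its centre of 0.0138 map units, against 0.752 for cluster 20, 3.90 for cluster 15 and 5.85 for cluster 6.

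The clusters also differed in what lay beside them. The nearest cell outside OPC was an oligodendrocyte of cluster 13 for 73.9% of cluster 15 cells, and a neural progenitor of cluster 14 or 25 for a further 11.9% and 10.4%. For 77.5% of cluster 6 cells it was an oligodendrocyte of cluster 28, and for 20.2% a choroid cell of cluster 5. For cluster 20 it was a choroid cell of cluster 12 in 91.8%, and for cluster 24 in 100%. The centres of clusters 15 and 6 lay 17.7 map units apart, while the centre of cluster 15 lay 8.32 units from that of oligodendrocyte cluster 13. These are places on a map and carry no test.

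**Figure D4:**
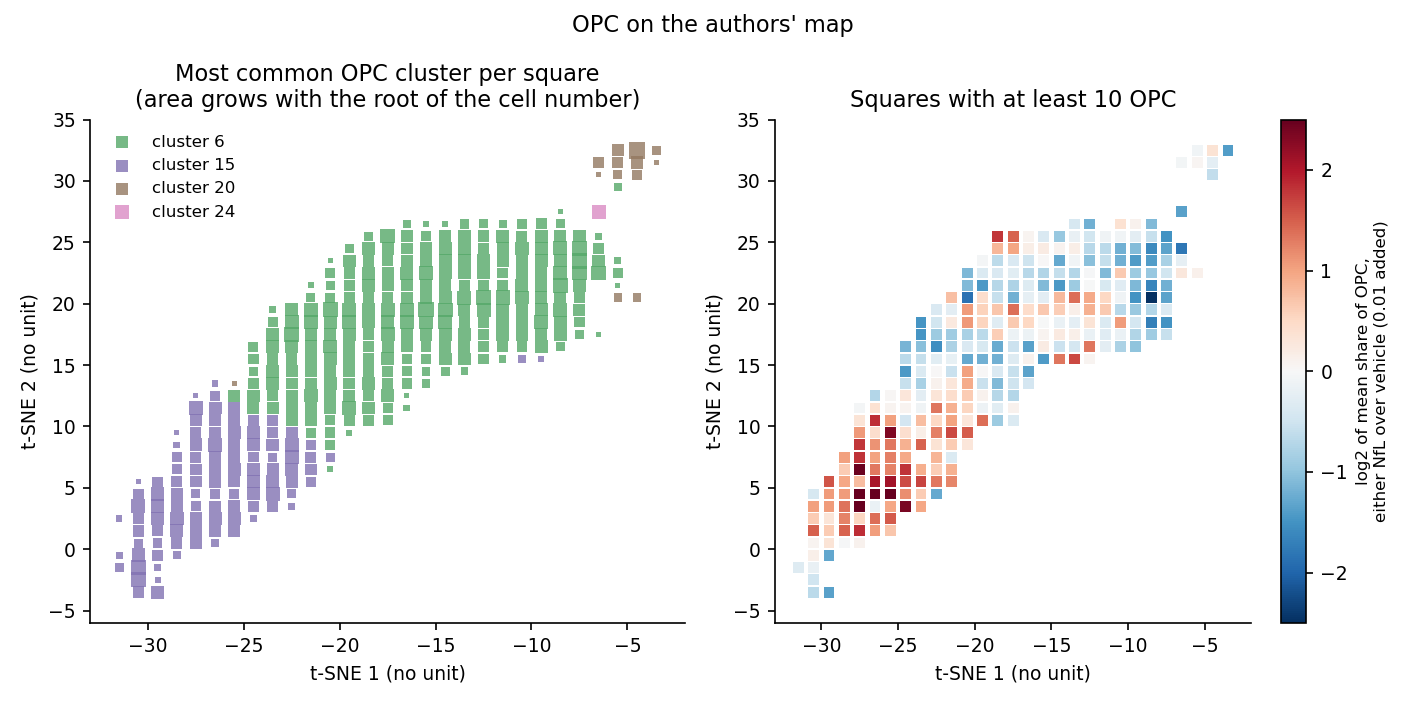
OPC on the authors' t-SNE map, in squares of 1 map unit. The left panel gives the most common OPC cluster of each square, and the right panel the log2 ratio of the mean share of OPC in a square after either NfL over that after vehicle, for squares with at least 10 OPC. Most squares of cluster 15, apart from its outer end, have a higher share after NfL, while the area of cluster 6 holds squares of both kinds, with more of a lower share.

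Position was also read along the line from the centre of cluster 6, set to 0, to the centre of cluster 15, set to 100, a measure chosen after the map had been seen. Over the cells of clusters 6 and 15 the median position was 16.4, 14.4 and 27.1 after FL-NfL, 14.1, 21.4 and 36.6 after CC-NfL, against 11.0, 7.72, 6.20 and 4.08 after vehicle. All NfL libraries lay further towards cluster 15 than any vehicle library, a difference for either NfL of 14.4 (exact permutation p = 0.0190, adjusted p = 0.0381), which is the cluster shares seen in another way. In b1 alone the difference was 7.21 (exact permutation p = 0.0667, the smallest possible), and without the 3 libraries numbered 1 it was 18.9 (exact permutation p = 0.0571). Inside cluster 6 the median differed by batch, at −9.00 ± 3.44 in b2 (n = 4) and 1.02 ± 4.95 in b1 (n = 6), a difference of −10.0 (exact permutation p = 0.0143) that without FL-NfL replicate 3 was −8.60 (exact permutation p = 0.0595) and without the libraries numbered 1 −10.4 (exact permutation p = 0.0571). Inside cluster 6 the difference between either NfL and vehicle was 4.09 (exact permutation p = 0.357).

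Within cluster 15 the vehicle libraries were unlike one another. The median position was 97.2, 91.2 and 97.4 in the FL-NfL libraries and 98.4, 95.6 and 93.9 in the CC-NfL libraries, against 135, 113, 93.6 and 86.9 in the vehicle libraries. The NfL libraries were close together, while vehicle replicates 1 and 2, both of b1, lay further from cluster 6 than any other library (either NfL against vehicle −11.7, exact permutation p = 0.210). Cluster 15 was then divided at position 130, a point chosen after the map had been seen, with no test. The near side made up 28.0%, 24.5% and 27.6% of OPC after FL-NfL, 26.2%, 24.9% and 33.7% after CC-NfL, against 7.51%, 16.5%, 17.3% and 14.9% after vehicle. The far side made up 4.35%, 3.55% and 2.25% after FL-NfL, 1.93%, 4.51% and 2.78% after CC-NfL, against 8.35%, 6.39%, 2.08% and 1.46% after vehicle. The NfL libraries thus had a higher share than every vehicle library on the near side and overlapped with vehicle on the far side, where the 2 highest libraries were vehicle replicates of b1.

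**Figure D5:**
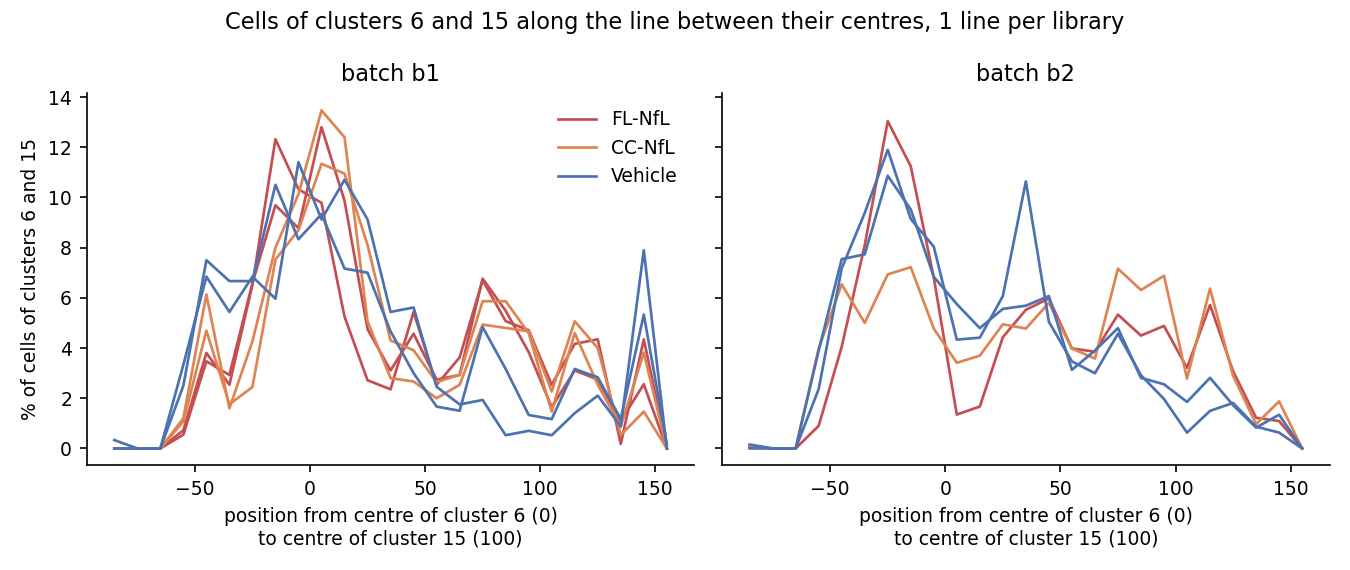
Share of the cells of clusters 6 and 15 along the line from the centre of cluster 6 (0) to that of cluster 15 (100), in percent per bin of 10, with a line per library, for FL-NfL, CC-NfL and vehicle in panels for b1 and b2. Around 100 the NfL libraries run above the vehicle libraries in both panels, and the b1 libraries have a further peak beyond 130 that is highest in vehicle.

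Libraries of 1 batch lay together among OPC on the map. Libraries of 1 condition did so only relative to relabellings within batch. Among the 30 nearest OPC of each OPC, the log2 observed over expected share of another library was 0.78 higher for pairs of the same batch than for pairs of different batches (exact one-sided permutation p = 0.00476, the smallest possible). The same difference by condition was 0.0043, against a mean of −0.14 over all relabellings within batch. The excess over that mean was 0.14 (exact one-sided permutation p = 0.00185, the smallest possible). With the libraries labelled NfL or vehicle it was 0.12 (exact one-sided permutation p = 0.0111, the smallest possible), and this call ended without vehicle replicate 1 (0.0737, exact p = 0.133) and without vehicle replicate 2 (0.0810, exact p = 0.167). Over all OPC, both excesses also take in the division between clusters 6 and 15, so they are not independent of that result. Without the 3 libraries numbered 1, the excess was 0.0785 by condition (exact permutation p = 0.0556, smallest possible 0.0278) and 0.0742 by NfL or vehicle (exact permutation p = 0.111, smallest possible 0.0556), so both calls ended, and the batch difference was 0.59 (exact permutation p = 0.0286, the smallest possible). Inside cluster 6 the batch difference was 1.04 and inside cluster 15 0.26, each with an exact permutation p of 0.00476. Inside cluster 6 the excess by condition was 0.13 (exact permutation p = 0.00185, the smallest possible), though the difference itself was −0.0539. The excess by NfL or vehicle was 0.04 there (exact permutation p = 0.233). Inside cluster 15 neither the excess by condition (0.05, exact permutation p = 0.220) nor that by NfL or vehicle (0.07, exact permutation p = 0.122) passed.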

How the data were processed

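Cell Ranger 6.0.1 and GRCm38 were used by the authors, per the submitters' processing notes. Filters, doublet removal, clustering and map settings: not given in the sources used here. In the deposited file each cell has the authors' names (condition, batch, cluster, class) and t-SNE positions, each a score in map units, for 68914 of 108266 barcodes; 39352 (36.3%) carry no annotation and were left out. Condition and batch of every annotated cell were as labelled. The table was expected to hold no gene values, and it holds none. The library was the replicate; per the labels, separate mice were injected. Log2 odds of cell counts (0.5 added) were the response in limma (version 3.58.1, under R 4.3.3), with terms for group and batch, over all 16 classes, 31 clusters, or 22 clusters within their class (mean of at least 10 cells per library), with Benjamini-Hochberg adjustment and a threshold of 0.05. Log2 ratios and map measures were tested by exact permutation over libraries (Python 3.11.15, SciPy 1.17.1, scikit-learn 1.9.0). Mixing on the map used 30 neighbours. Intervals on single shares are exact at 95% and, like the limit of 3 cells for a count of 0, cover counting error only. Shares within a class are not independent. The fit was tested on 100 simulated data sets of 22 items for each size of effect. For either NfL against vehicle it called 11% of the changed items at a log2 odds ratio of 1 and 61.7% at 2. Most simulated effects of 1 were thus missed, as an average over clusters of unlike spread. Counting noise entered the simulated data in addition to a spread that already held it, and clusters of a class were drawn independently. The clusters and lists named were chosen with earlier results of these data known: OPC and all its clusters, and others only where a comparison uses them. Alternatives were another added count, other scales, a quasi-binomial model, other denominators, no minimum, no batch term, a replicate block, and subsets of libraries.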

Additional observations from a re-analysis of the deposited data

How the results depend on the processing

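Over 74 results and 1342 alternative values, 1203 stayed the same. For an estimate this means direction and side of the threshold, and for a count of calls an equal or similar number. Of the estimates 11 lost a call, 10 gained a call and 53 reversed direction, and 65 counts moved. The causes were not tested. Of the OPC clusters within OPC, the quasi-binomial model called 2 for CC-NfL (cluster 15 1.13, cluster 6 −0.97), among 6 of 22 clusters of all classes. For either NfL it called 2 (1.04, −0.88), among 3 of 22. The arcsine scale called 2 for either NfL (0.14, −0.13), among 3 of 22. As shares of annotated cells, the quasi-binomial model called 1 OPC cluster for either NfL, among 4 of 31. On the percentage scale the ratio of cluster 15 to 6 passed for FL-NfL (11.7) and CC-NfL (12.9). For either NfL the log2 ratio no longer passed without the libraries numbered 1 (0.88), in b1 (0.81) or over 3 pairs (0.88). In b1 and over the 3 pairs no value could pass, because the smallest possible exact p lies above the threshold. Without the libraries numbered 1, an alternative chosen after seeing the data for the map, mixing no longer passed by condition (0.0785) or by NfL or vehicle (0.0742). The centred log ratio reversed cluster 6 (CC-NfL 0.27, either NfL 0.0721, FL-NfL against CC-NfL −0.39) and cluster 20 (CC-NfL 0.34, either NfL 0.0874).

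No reversed value below belongs to a called result. In b1 these were the OPC share for CC-NfL (0.0636), FL-NfL against CC-NfL for clusters 15 (0.0997) and 6 (−0.0783) and for their ratio (0.0969), and OPC to oligodendrocytes for FL-NfL (0.22). Without the libraries numbered 1 they were the OPC share (0.0984) and cluster 6 of annotated cells (0.20) for FL-NfL against CC-NfL, cluster 15 for b2 against b1 (−0.0037), and OPC to oligodendrocytes for CC-NfL (−0.14), either NfL (−0.11) and FL-NfL against CC-NfL (0.0784). Cluster 6 of annotated cells for FL-NfL against CC-NfL was 0.0463 with the quasi-binomial model and 0.0225 of non-immune cells. For b2 against b1, the OPC share of all barcodes was 0.58, cluster 6 was −0.00198 (arcsine) and −0.0765 (quasi-binomial), and the ratio of cluster 15 to 6 within group was 0.0634.

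Leaving out each library in turn, values for CC-NfL ran from −0.21 to 0.0596 for the OPC share and −0.42 to 0.0276 for cluster 20 of annotated cells. For FL-NfL against CC-NfL they ran from −0.23 to 0.0527 (OPC share), −0.18 to 0.12 (cluster 15), −0.11 to 0.18 (cluster 6), −0.25 to 0.12 (cluster 6 of annotated cells), −0.31 to 0.0961 (cluster 20), −0.42 to 0.0137 (cluster 20 of annotated cells) and −0.18 to 0.0842 (ratio of cluster 15 to 6). For b2 against b1 they ran from −0.0835 to 0.23 (cluster 15), −0.12 to 0.16 (cluster 6), −0.36 to 0.15 (ratio of 15 to 6), −1.08 to −0.49 (OPC to oligodendrocytes) and −1.71 to 9.13 (median position). OPC to oligodendrocytes ran from −0.55 to 0.26 (FL-NfL), −0.20 to 0.63 (CC-NfL), −0.82 to 0.0639 (FL-NfL against CC-NfL) and −0.24 to 0.34 (either NfL), and mixing by NfL or vehicle from 0.0737 to 0.16. The fit of a difference between batches could not be made without FL-NfL or CC-NfL replicate 3.

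The replicate numbers were not taken as pairs in the main tests, although same-numbered libraries resembled each other. Of 9 same-numbered pairs of libraries 8 correlated above 0.1 (lowest 0.0748), and 15 of 18 best matches shared a number. Same-numbered libraries also shared a batch. After the terms for group and batch were taken out, r of these pairs ran from −0.22 (FL-NfL with CC-NfL, replicate 3) to 0.68 (FL-NfL with CC-NfL, replicate 2). A pairing by number is thus not excluded, and the permutations within batch treated libraries of different numbers as exchangeable. With the replicate block, cluster 15 within OPC was 0.89 for either NfL (adjusted p = 0.0891), limma called 3 of 22 clusters within their class against 0 without it, none of them an OPC cluster, and OPC to oligodendrocytes for either NfL was −0.0520 within batch and −0.24 over 3 pairs (CC-NfL −0.0369). The number of OPC and libraries limits precision.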
